A study of Mus musculus with 12 samples.

Results

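The cytosolic chaperonin CCT, also called TRiC, was followed in mouse testis through the 9 genes that encode its subunits, Tcp1, Cct2, Cct3, Cct4, Cct5, Cct6a, Cct6b, Cct7 and Cct8. A probe belonged to the set when the platform annotation gave it 1 of these gene symbols, which held for 13 of 20355 probes. Tcp1 and Cct6b had 3 probes each and the other subunits 1 each. After averaging of probes with the same symbol, all 9 genes were among the 14729 tested features (of 16255), and 11 of the 13 probes had enough values to be tested singly.

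CCT is built of stacked rings of related subunits, and each ring takes a subunit of each kind. Newly made proteins fold in the central cavity as the subunits bind and hydrolyse ATP, and actin and tubulin are the best-known proteins that depend on it. In the testis tubulin builds the spermatid manchette and the sperm tail, and actin-like proteins line the sperm head. Cct6b is a testis-enriched paralog of Cct6a, and either protein can fill the zeta position of the ring.

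The RNA was hybridised to 12 two-colour DNA arrays, which report for each spot the ratio of the RNA in 1 channel to that in the other. Each channel held pooled testis RNA from 3 male mice, and all pools had the Castaneus background. The pools were labelled wildtype, Wobbler (wr) or Wobbler modifier (wr/mod in the design). Wobbler is a recessive mutation of Vps54, a subunit of a complex that tethers vesicles at the Golgi, and affected males are infertile. The labels do not say what the modifier is, how old the mice were, or whether each array had a pool of its own. If the arrays of a comparison shared pools, the p-values reflect technical spread alone. A reference RNA of 6 control animals is named in the labelling protocol and in no channel label, and the channel labels were followed.

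The 3 genotypes were hybridised in all 3 pairs, with 4 arrays for each pair. The dyes were exchanged in replicates 3 and 4, whose values were multiplied by -1. All values below are log2 ratios of the first-named genotype over the second, with 0 meaning equal signal. The order of the dyes in the deposited ratio is not stated, so the direction is only likely. A ratio gives no level, and subunits could not be ranked by abundance.

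The arrays held 18325 to 19584 usable spots, and their SD over all spots was 0.62 to 1.61. The widest was replicate 2 of Wobbler over wildtype. A feature passed when its Benjamini-Hochberg adjusted p with limma was under 0.05, as held for 0.306%, 0.733% and 0.414% of all tested features in Wobbler over wildtype, modifier over wildtype and modifier over Wobbler. In that order 0, 11 and 7 of 27 measured late spermatid markers passed with a ratio below 0, and 12, 27 and 26 had a ratio below 0. Their medians were 0.04, -0.77 and -0.59. Of 11 Leydig cell markers 0, 2 and 1 passed with a ratio below 0, with medians of 0.11, -0.62 and -0.49. Of 10 macrophage and of 9 meiotic markers 1 each passed with a ratio below 0 in modifier over wildtype, and of 10 Sertoli and 7 spermatogonial markers none passed in any comparison.

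The stretches below were taken from the RefSeq promoter table (GRCm38.p6) to show a box of letters found upstream of some subunit genes. The table held 10 windows for 8 of the 9 members, all but Cct4, with 2 each for Cct2 and Cct5, and the 250 bases before the annotated start were searched on both strands. CCAAT, the letters bound by the factor NF-Y, was found in 4 of the 10 windows, 1 each of Tcp1, Cct3, Cct6a and Cct7, a share near the 33.8% of all 32851 windows that hold it. Each stretch is printed on the strand of its gene, with CCAAT or its reverse complement ATTGG in capitals, and the 3 sites of Cct7 are not shown.
Tcp1, chr17:12916187-12916211, + strand: ccctggctcaCCAATcaccgcagac
Cct3, chr3:88297051-88297075, + strand: aatactgtcgATTGGcctatgtttt
Cct3, chr3:88297092-88297116, + strand: gagtttggtgATTGGcggcacttca
Cct6a, chr5:129787287-129787311, + strand: ttggattaagCCAATcagcgggcgg
Cct6a, chr5:129787317-129787341, + strand: gggtcgccacCCAATggaggtgctc
The printed Cct6a stretches begin their CCAAT 59 and 29 bases before the start. The searched window of its paralog Cct6b does not hold these letters.

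The core of an Sp1 box, GGGCGG, was found in 8 of the 10 windows and 7 of the 8 genes, all but Cct6b, and in 32.7% of all windows. Of the paired heat-shock units, GAANNTTC was present in Cct2 (6.69% of all windows) and TTCNNGAA in Cct5 (7.17%). TGACG, the shared core of cyclic-AMP response elements, was present in Cct6a (17.8%). The full palindrome TGACGTCA (1.55%) and TATAAA (12.4%) were in none of these windows. Another protein-coding gene's annotated span overlapped 5 of the 10 windows, each of a different subunit gene, and 20.2% of all windows. The neighbours were Mrpl18 at Tcp1, Tsacc at Cct3, Psph at Cct6a, Zfp830 at Cct6b and Pradc1 at Cct7. The 9 genes lie on 8 chromosomes, and Cct4 and Cct6b share chromosome 11 with Vps54. Vps54 and Cct4 are separated by 29 RefSeq genes of GRCm38.p6, 8 of them protein-coding.

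The comparison of the modifier with wildtype asked how testis carrying both the Wobbler mutation and the modifier differed from normal testis. No CCT subunit gene passed with limma, where 0.733% of all tested features did. Of the 9 genes 8 had a fitted log2 ratio below 0, where 47.5% of all features did, and their median was -0.22 beside 0.01 over all features. Cct6a was the exception at 0.16. Before adjustment 1 of 9 had a p under 0.05, Tcp1, where 7.33% of all features did.

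Cct6b, the testis-enriched zeta subunit, held the single probe that passed in this comparison, where 0.915% of all tested probes did. Its probe 7920 read -0.52, -0.43, -1.25 and -0.66 on replicates 1 to 4 of modifier over wildtype. All 4 arrays lay below 0, as they did for 10.6% of all probes, and replicate 3 was the lowest. The fitted log2 ratio was -0.71 ± 0.14 (SE, n = 4), with a limma adjusted p of 0.044. The same probe read 0.40, 0.20, -0.23 and -0.26 in Wobbler over wildtype, fitted at 0.03, and the sign followed the dye orientation. In modifier over Wobbler it read -0.18, -0.10, -0.68 and -0.04, again below 0 on all 4 arrays (6.81% of all probes), and the fitted -0.25 ± 0.14 (SE, n = 4) did not pass (limma adjusted p 0.50). The lowest array of modifier over Wobbler lay within the range of modifier over wildtype.

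The remaining Cct6b probes had gaps on several arrays. Probe 9509 read -0.35, 0.24 and 1.24 on replicates 1, 2 and 4 of modifier over wildtype, and probe 9291 read -0.94, 1.24, -0.46 and -1.91 on its 4 arrays. Neither repeated the reading of probe 7920 on every array, and neither met the filter of 3 values in each comparison. The gene mean of Cct6b drew on 3 probes on replicates 1, 2 and 4 and on 2 probes on replicate 3. This mean was -0.39 ± 0.42 (SE, n = 4) and did not pass (limma adjusted p 1).

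The call of probe 7920 was lost without any of replicates 1 to 4 of modifier over wildtype (limma adjusted p 0.272, 0.219, 0.284 and 0.0811), without replicates 3 or 4 of Wobbler over wildtype (0.0657 and 0.0654), and without replicates 1, 2 or 3 of modifier over Wobbler (0.0665, 0.0708 and 0.0522). It was also lost without the dye term (0.18), and the fitted ratio turned to 0.24 when values were read as channel 1 over channel 2. No tested feature passed in any comparison in that reading. In modifier over wildtype 108 features passed in the fit used throughout and 46 without the dye term. Without replicates 1 to 4 of modifier over wildtype 20, 21, 19 and 50 features passed there. The late spermatid markers were lower on the same 4 arrays, at -0.96, -0.79, -0.75 and -0.79 relative to the medians of replicates 1 to 4. Their part in the Cct6b reading was not tested. In whole testis fewer cells of a type and less RNA per cell cannot be told apart.

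Cct6a, the paralog expressed in most tissues, read 0.27, 0.09, 0.22 and 0.06 in modifier over wildtype. It was above 0 on all 4 arrays, as were 8.81% of all tested features, and its fitted 0.16 had a 95% interval from -0.17 to 0.49. Within each array, Cct6b probe 7920 minus Cct6a averaged -0.87 ± 0.41 (SD, n = 4), between -1.47 and -0.52. The same difference averaged -0.18 ± 0.65 (SD, n = 4) in modifier over Wobbler and 0.09 ± 0.40 (SD, n = 4) in Wobbler over wildtype. The arrays of modifier over Wobbler, between -0.93 and 0.63, overlapped those of modifier over wildtype. In modifier over wildtype the gap joins the single probe that passed with the single gene fitted above 0. It therefore restates those readings and is no separate support for them. How often other pairs of genes had such a gap was not counted.

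Tcp1, the alpha subunit, read below 0 on all 4 arrays of modifier over wildtype at each of its 3 probes. Probe 13653 read -0.33, -0.39, -0.76 and -0.53, fitted at -0.50 ± 0.12 (SE, n = 4) with a limma adjusted p of 0.0963. It passed with arrays scaled to equal spread (limma adjusted p 0.00575), after quantile normalization (0.0101), with array weights (0.00246), and without the widest array and with centring (0.0422). In these settings 483, 421, 709 and 183 tested features passed, in that order, against 108 in the fit used throughout. Probe 1542 read -0.13, -0.23, -0.82 and -0.30, and passed with array weights (limma adjusted p 0.0353). Probe 14803 read -0.06, -0.12, -0.55 and -0.02. Replicate 3 was the lowest array for every Tcp1 probe. The gene mean was -0.35 ± 0.12 (SE, n = 4), with a 95% interval from -0.62 to -0.09 and a limma adjusted p of 0.378. With arrays weighted by their quality the same ratio, -0.34, passed with a limma adjusted p of 0.0349, as did 709 of 14729 features.

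The other subunits did not pass in modifier over wildtype. Cct5, the epsilon subunit, read 0.00, 0.03, -0.90 and -0.32 and was fitted at -0.30 (95% interval -0.60 to 0.01). Cct2, the beta subunit, read -0.04, -0.03, -0.61 and -0.21, below 0 on all 4 arrays as were 10.4% of features, and was fitted at -0.22. Cct3, the gamma subunit, read 0.03, -0.05, -0.47 and -0.48. In these 3 genes the values near 0 came from replicates 1 and 2 and the lower values from the dye-exchanged replicates 3 and 4. Cct7, the eta subunit, read 0.40, 0.13, -0.55 and -0.16 and changed sign with the dyes. Cct4, the delta subunit, stayed between -0.20 and 0.05 over the 4 arrays, and Cct8, the theta subunit, between -0.16 and 0.23.

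Array by array, the median of the 9 genes was below the median of all spots on each array of modifier over wildtype, by values of -0.19, -0.10, -0.37 and -0.12 in replicates 1 to 4. Between 6 and 7 of the 9 genes lay below the array median on each. The values that follow were not centred, and the median of all spots was 0.16, 0.13, -0.18 and -0.10 on replicates 1 to 4. The median of the fitted ratios was -0.01 from replicates 1 and 2 alone, with 5 of 9 genes below 0, and -0.41 from replicates 3 and 4 alone, with 8 of 9. Without replicate 1, 2 or 3 it was -0.12, -0.09 or -0.13, with 7, 8 or 7 genes below 0. With 2 genotype coefficients for all 3 comparisons it was -0.08, with 5 genes below 0. Read as channel 1 over channel 2 it was 0.19, with 1 gene below 0, beside a median of 0.15 over all features.

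**Figure D1:**
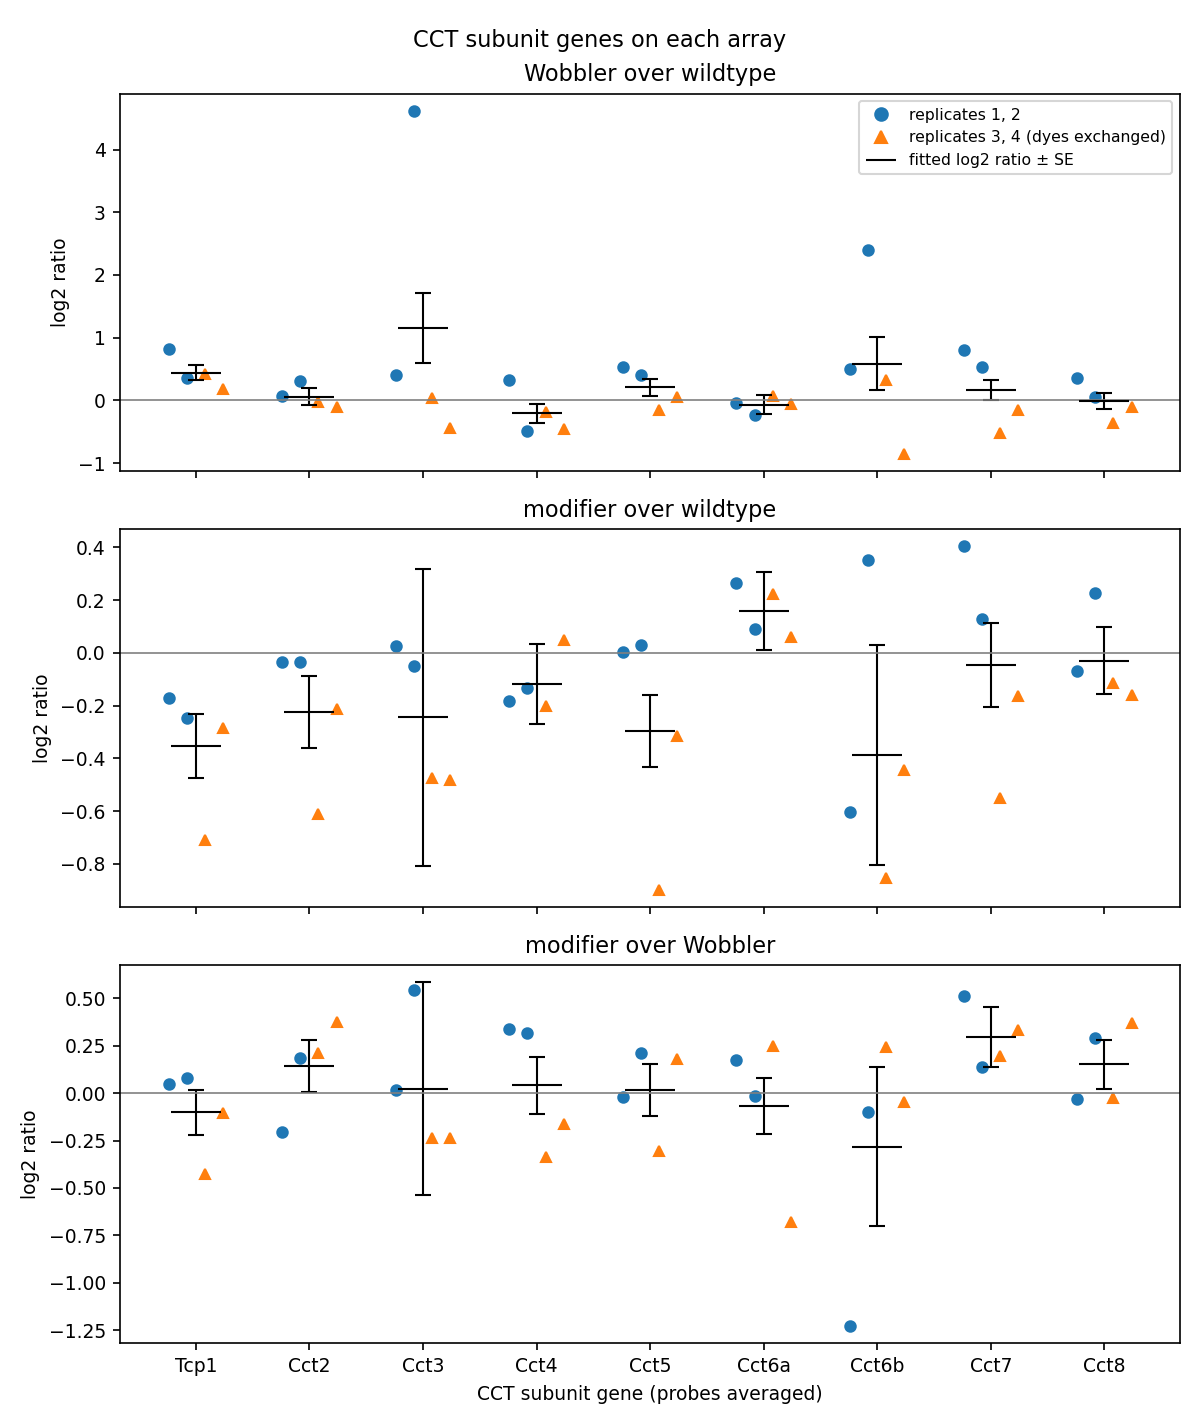
Log2 ratio (vertical axis) of the 9 CCT subunit genes on the 12 arrays, grouped by comparison. Points are single arrays, with replicates 1 and 2 told apart from the dye-exchanged replicates 3 and 4, and bars are the fitted ratio ± SE. Cct3 on replicate 2 of Wobbler over wildtype, at 4.62, lies far from every other array of that gene.

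Wobbler over wildtype asked what the mutation alone did. No subunit gene passed with limma, where 0.306% of all tested features did. Of the 9 genes 3 had a ratio below 0, where 50.8% of features did, and the median was 0.17 beside -0.01 over all features. Before adjustment Tcp1 was the 1 gene with a p under 0.05, where 15.7% of all features had one.

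Tcp1 carried the single probe that passed, where 0.482% of all tested probes did, and its 3 probes differed. Probe 14803 read 1.52, 0.99, 1.15 and 0.73 on replicates 1 to 4, all above 0 as in 6.97% of all probes. It was fitted at 1.10 ± 0.15 (SE, n = 4) with a limma adjusted p of 0.0119. Probe 1542 read 0.66, 0.19, 0.29 and -0.02, fitted at 0.28 with a limma adjusted p of 0.318. Probe 13653 read 0.27, -0.13, -0.19 and -0.16, fitted at -0.05. On every array probe 14803 was the highest of the 3, and its lowest array was above the highest array of the other probes.

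The spread between the Tcp1 probes was measured within each array as probe 14803 minus the mean of the other 2. It averaged 0.98 ± 0.13 (SD, n = 4) in Wobbler over wildtype, between 0.82 and 1.10. It averaged 0.25 ± 0.10 (SD, n = 4) in modifier over wildtype and 0.25 ± 0.25 (SD, n = 4) in modifier over Wobbler, with a highest array of 0.63. The range in Wobbler over wildtype thus did not overlap those of the other comparisons. Probe 14803 was set apart because it had the smallest p of the Tcp1 probes in Wobbler over wildtype. A wide gap in that comparison was therefore favoured by the choice. How often other genes with several probes had such a gap was not counted. The gene mean of Tcp1 read 0.82, 0.35, 0.42 and 0.18, above 0 on all 4 arrays as were 6.58% of all features, and was fitted at 0.44 ± 0.12 (SE, n = 4) with a limma adjusted p of 0.153.

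The call of probe 14803 was lost without replicate 3 of Wobbler over wildtype (limma adjusted p 0.0725), after quantile normalization (0.0983) and with each comparison fitted alone (0.805). The fitted ratio was 0.65 with 2 genotype coefficients for all 3 comparisons (limma adjusted p 0.434) and 0.16 when read as channel 1 over channel 2 (0.838). In Wobbler over wildtype no tested feature passed in these 2 settings or with each comparison fitted alone. There 18 features passed without replicate 3 and 14 after quantile normalization, against 45 in the fit used throughout. The wildtype, Wobbler and modifier pools form a closed loop, so modifier over Wobbler can also be had as the difference of the other comparisons. For probe 14803 that indirect value was -1.28 and the direct value 0.07, a difference of -1.35 ± 0.26 (SE) with a limma adjusted p of 0.263. For the gene mean of Tcp1 the values were -0.80 and -0.10, a difference of -0.69 ± 0.21 (SE) with a limma adjusted p of 0.577. None of the 9 genes passed in this test of the loop, where 0.0272% of features did. Before adjustment 1 of 9, Tcp1, had a p under 0.05, where 1024 of 14729 features did. The median difference of the 9 genes was -0.51 beside -0.09 over all features. It was below 0 for 7 of 9 genes and for 8414 of 14729 features. The difference of the set as a whole was not tested.

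**Figure D2:**
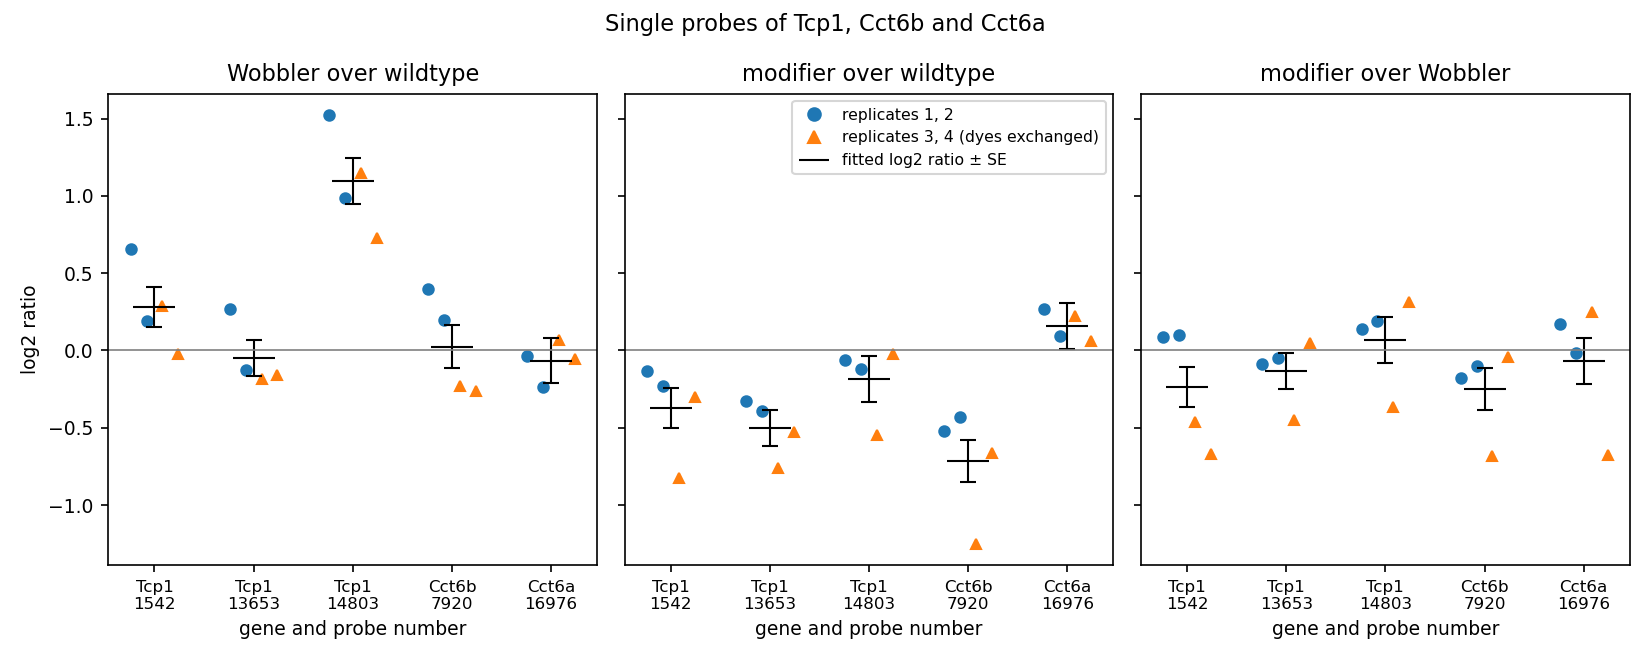
Log2 ratio (vertical axis) of the tested single probes of Tcp1, Cct6b and Cct6a on each array, grouped by comparison, with bars for the fitted ratio ± SE. Tcp1 probe 14803 lies between 0.73 and 1.52 in Wobbler over wildtype, above both other Tcp1 probes, and Cct6b probe 7920 lies between -1.25 and -0.43 in modifier over wildtype.

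Cct3 and Cct6b had the highest fitted ratios of the other subunits, and both rested on replicate 2, the widest array. Cct3 read 0.40, 4.62, 0.04 and -0.44, so that the fitted 1.16 ± 0.56 (SE, n = 4) did not pass (limma adjusted p 0.348). Probe 9509 of Cct6b read 0.60, 4.59, 0.87 and 0.72, and probe 9291 had a single value, -3.02 on replicate 4. The gene mean of Cct6b was 0.59 with a 95% interval from -0.34 to 1.52.

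Of the 6 remaining subunits, 4 were above 0 on replicates 1 and 2 and, apart from Cct5 on replicate 4, below 0 after the dye exchange. Cct7 read 0.80, 0.53, -0.52 and -0.15, Cct5 read 0.53, 0.41, -0.15 and 0.06, and Cct8 read 0.35, 0.06, -0.36 and -0.11. Cct2, the last of the 4, read 0.07, 0.30, -0.03 and -0.10. Cct4 read 0.32, -0.49, -0.19 and -0.46, and Cct6a read -0.04, -0.23, 0.07 and -0.05, with no such split by dye. Over all spots the median was 0.12, 0.025, -0.22 and -0.10 on replicates 1 to 4. Without centring, the median of the 9 genes was 0.47 from replicates 1 and 2 alone and -0.20 from replicates 3 and 4 alone. It was 0.08 without replicate 1, 0.01 without replicate 2 and 0.27 without replicate 3, and 0.06 without the Cct6b probes that have gaps. It was also 0.01 with array weights, 0.03 with 2 genotype coefficients, and 0.03 without replicate 2 and with centring. The dye term of the fit was above 0 for all 9 genes, with a median of 0.15, the same as over all features, and 0 of the 9 passed where 0.00679% of features did.

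Modifier over Wobbler asked what the modifier changed on the mutant background. No subunit gene and no single probe of one passed with limma, where 0.414% of features and 0.61% of probes did, and before adjustment 0 of 9 genes had a p under 0.05, where 11.5% of features had one. The median of the 9 genes was 0.02 beside 0.08 over all features, with 3 of 9 below 0 where 38.4% of features were. With each array centred on its median it was -0.03, with 6 of 9 below 0. Without replicate 1 it was 0.17.

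Cct7 read 0.51, 0.14, 0.19 and 0.34 in modifier over Wobbler, above 0 on all 4 arrays as were 11% of features. Its fitted 0.30 had a 95% interval from -0.06 to 0.65 and did not pass (limma adjusted p 0.518). Cct2 read -0.20, 0.18, 0.21 and 0.38, and Cct8 read -0.03, 0.29, -0.02 and 0.37. Cct4 read 0.34, 0.32, -0.33 and -0.16, and Cct3 read 0.02, 0.55, -0.24 and -0.23, so both lay above 0 before the dye exchange and below 0 after it. Cct5 stayed between -0.31 and 0.21. Cct6a read 0.17, -0.01, 0.25 and -0.68.

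The median of the late spermatid markers lay below the array median on every array of both comparisons with the modifier. The CCT median did so on all 4 arrays against wildtype and on 2 of 4 against Wobbler. On the arrays of modifier over Wobbler the spermatid median ran from -0.76 to -0.55 relative to the array median, and the CCT median from -0.14 to 0.05. On those of modifier over wildtype the spermatid median ran from -0.96 to -0.75 and the CCT median from -0.37 to -0.10. The 2 comparisons share the modifier genotype. The difference between the CCT medians of these comparisons was not tested.

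**Figure D3:**
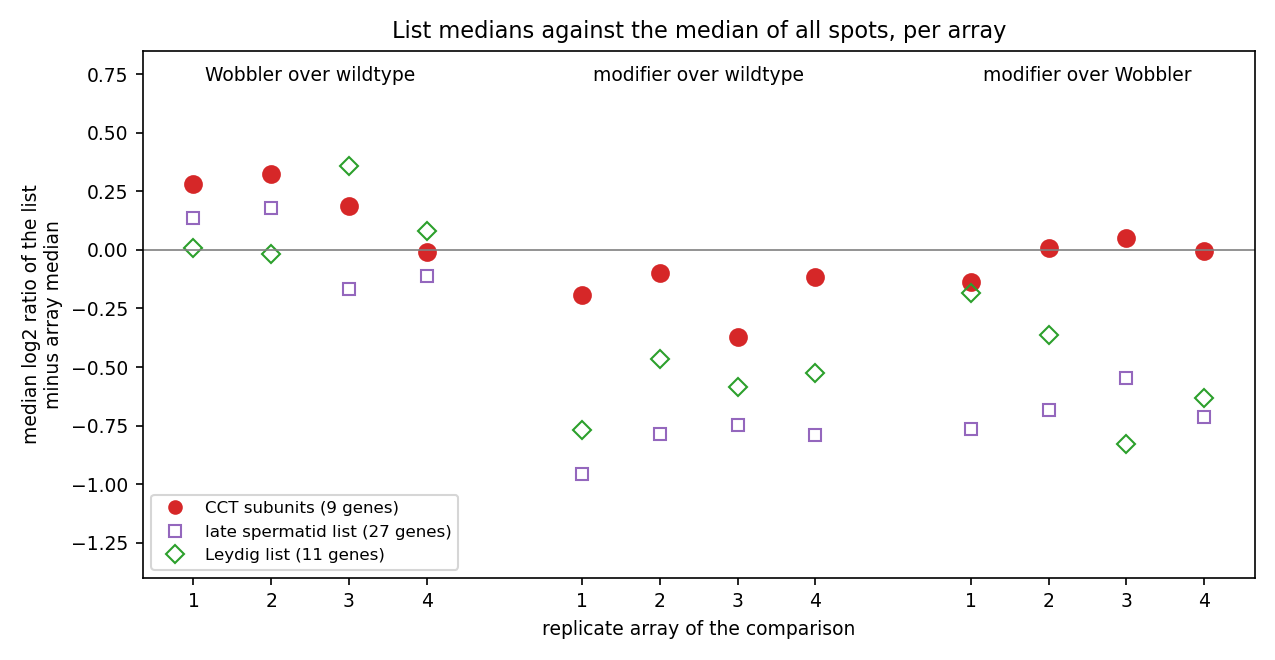
Median log2 ratio relative to the array median (vertical axis) of the CCT subunit genes and of the late spermatid and Leydig cell markers on each array. In modifier over Wobbler the CCT medians lie between -0.14 and 0.05, and the late spermatid medians between -0.76 and -0.55.

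The size of difference these arrays could resolve limits all 3 comparisons. The median SE over all features was 0.21 on the log2 scale. Most members had smaller SEs, from 0.12 for Tcp1 to 0.16 for Cct7, and Cct3 and Cct6b had 0.56 and 0.42. Of the 9 genes 8, 7 and 9 lay between the 10th and the 90th percentile of all fitted ratios in Wobbler over wildtype, modifier over wildtype and modifier over Wobbler. The members outside were Cct3 on the high side in the first, and Tcp1 and Cct6b on the low side in the next.

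**Figure D4:**
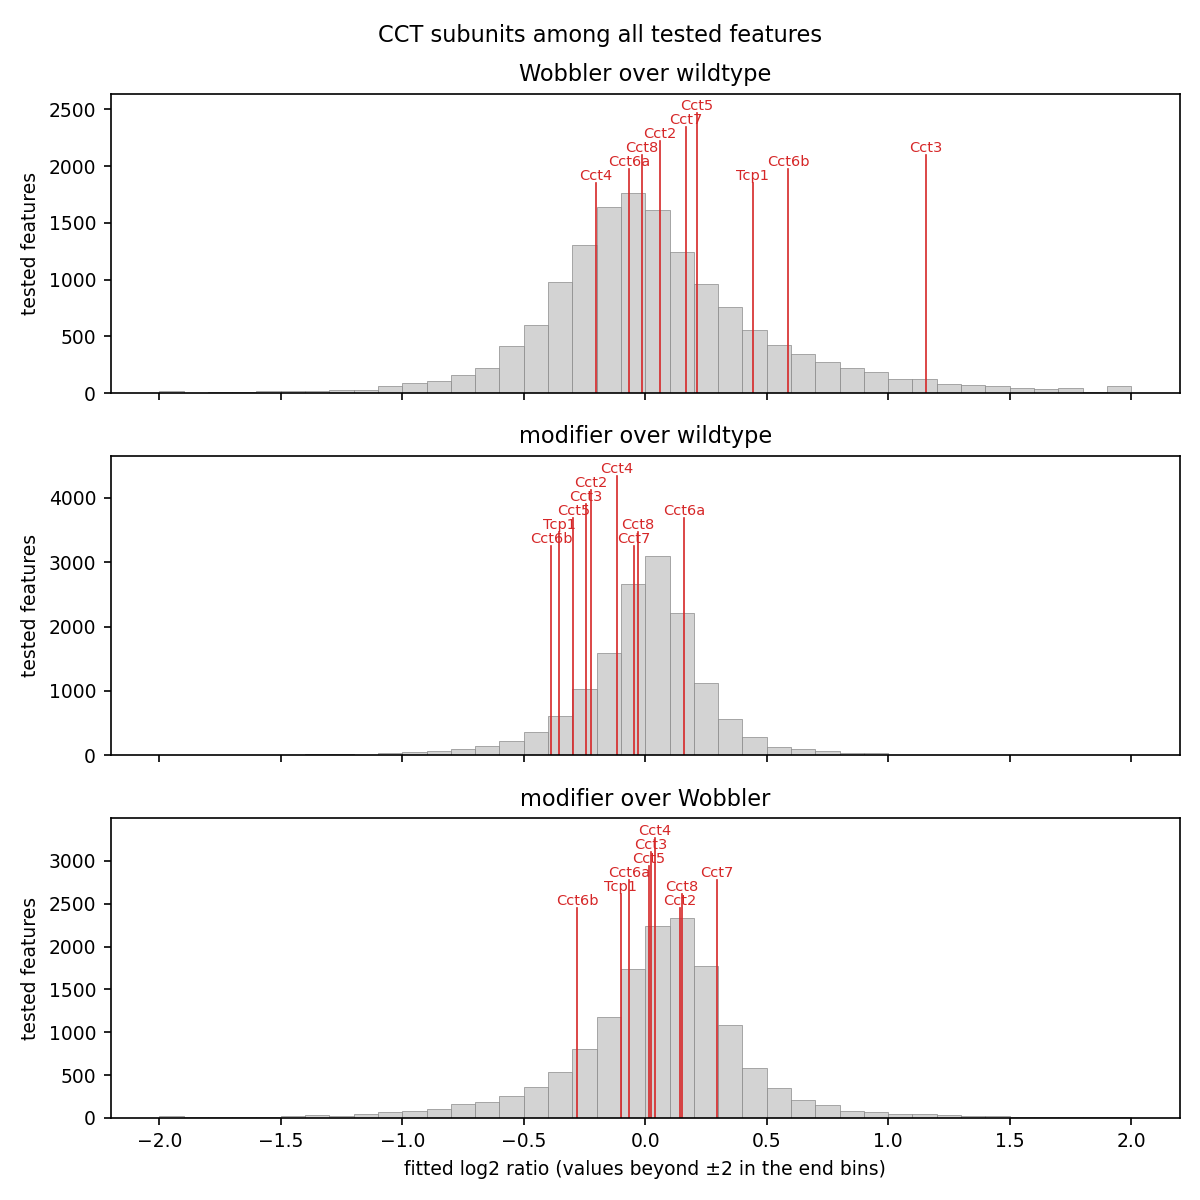
Distribution of fitted log2 ratios (horizontal axis) of all 14729 tested features in each comparison, with the 9 CCT subunit genes marked. The outermost bars also hold the features beyond the axis. Cct3 at 1.16 in Wobbler over wildtype lies above the 90th percentile, and Tcp1 at -0.35 and Cct6b at -0.39 in modifier over wildtype lie below the 10th.

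The proteins that work beside CCT were measured with lists of the same pathway, and none of their genes passed with limma in any comparison in the fit used throughout. Prefoldin, which delivers unfolded actin and tubulin to CCT, and other genes listed as cofactors had 7 measured genes of 16. Among the 7 was Urgcp, whose place among these cofactors was not checked. The medians of the 7 were 0.02, -0.08 and 0.15 in Wobbler over wildtype, modifier over wildtype and modifier over Wobbler. Pfdn1, a prefoldin subunit, had a ratio of -0.23 in modifier over wildtype, and Bag3, a co-chaperone of Hsp70, 0.15 in modifier over Wobbler.

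Tubulins, actins and actin-like proteins had 22 measured genes of 29, with medians of 0.21, -0.18 and 0.02. Before adjustment 3, 4 and 4 of the 22 had a p under 0.05, where 15.7%, 7.33% and 11.5% of all features had one. Of these, 0, 4 and 3 had a ratio below 0. Tubb4b, a beta tubulin of cilia and flagella, had a ratio of 0.59 ± 0.13 (SE, n = 4) in Wobbler over wildtype, with a limma adjusted p of 0.108. Actl7a, an actin-like protein of the spermatid head, was at -0.58 ± 0.15 (SE, n = 4) in modifier over wildtype and at -0.45 ± 0.15 (SE, n = 4) in modifier over Wobbler, with limma adjusted p of 0.178 and 0.297. It passed in modifier over wildtype with array weights (limma adjusted p 0.00445), with arrays scaled to equal spread (0.0208), after quantile normalization (0.0352) and with 2 genotype coefficients (0.0297). In these settings 709, 483, 421 and 224 of all tested features passed, in that order, against 108 in the fit used throughout. Actrt3, an actin-related protein of the sperm head, was at -0.83 ± 0.24 (SE, n = 4) in modifier over wildtype, with a limma adjusted p of 0.257.

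The cofactors that assemble tubulin after its release from CCT had 7 measured genes of 9, with medians of 0.01, -0.02 and 0.11. Tbca, which holds free beta tubulin, was at 0.36, -0.43 and -0.41 in the 3 comparisons, with limma adjusted p of 0.277, 0.361 and 0.313. It passed in modifier over wildtype with array weights (limma adjusted p 0.0426), as did 709 of 14729 features. Other proteins reported to fold in CCT, among them cell-cycle regulators and G protein beta subunits, had 11 measured genes of 16, with medians of -0.05, 0.01 and 0.04. In Wobbler over wildtype these genes ran from -0.86 for Hdac3 to 1.13 ± 0.26 (SE, n = 4) for Rptor, with 7 of 11 below 0. Rptor had a limma adjusted p of 0.121 there. It passed without replicate 4 of modifier over Wobbler (limma adjusted p 0.0356), as did 34 of 14125 features. Mitochondrial and Bardet-Biedl chaperonins had 3 measured genes of 5. Hspd1, the mitochondrial Hsp60, had ratios of -0.18 in Wobbler over wildtype and -0.06 in modifier over wildtype. Of the heat shock factor list 1 gene of 5 was measured, Hsbp1, a binding partner of heat shock factor, with ratios of 0.02, -0.11 and -0.06.

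The genes whose ratios followed the mean of the 9 subunits most closely over the 12 arrays were Gsto1, Fzr1, Tbc1d15, Ubxn4 and Rps13, with Pearson r of 0.97, 0.96, 0.96, 0.96 and 0.95 among 8036 features with all values. The arrays share genotypes and may share pools, and the mean of the subunits was furthest from its median on replicates 2 and 1 of Wobbler over wildtype. Without these 2 arrays r was 0.83, 0.87, 0.87, 0.88 and 0.81.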

How the data were processed

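Testis RNA pools were compared on 12 two-colour arrays, 4 for each of 3 pairs of genotypes. The authors deposited a log2 ratio for every spot. The base of the logarithm was read from the values, and the scanner and any background correction or scaling between channels were not given in the sources used here. On each array the repeated maximum, between 15.5 and 16.503, was taken to mark spots whose ratio had no usable denominator, and set to missing (22 to 165 spots). The planned range ended at 16.5, and 1 array lay just above it.

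Values of arrays with exchanged dyes were multiplied by -1. Of the probes, 14030 had 1 gene symbol, 5 had several and 6320 had none; probes sharing a symbol were averaged array by array, and the others were kept as features of their own. Gene identifiers of all 9 members matched the RefSeq table of GRCm38.p6. Testing required a value on 3 or more of the 4 arrays in all comparisons (14729 features, or 18038 single probes). The model was fitted with limma 3.58.1 (lmFit and eBayes; R 4.3.3), with a mean for each comparison and a dye term over all 12 arrays, and was tested on simulated data. An SE comes from this fit and pools the spread of all 12 arrays. A feature passed where its p, adjusted by Benjamini-Hochberg over each comparison, was under 0.05. The number of arrays limits the precision.

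All members were named. Of each other list the text drew on the genes past the threshold or, where none passed, on up to 2 with the smallest p; marker lists of cell types are given as counts. Likeness was Pearson's r to the mean of the members. Members and lists were chosen with earlier results of these data known. Alternatives changed centring, scaling, dye term, filter, probe averaging, model, weights, the reading of the ratios and the arrays used. The fit used throughout did not pair arrays by replicate number.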

Additional observations from a re-analysis of the deposited data

Results flagged for a closer look

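Among 41 groups of 4 arrays, 3 held an array further from the others than Dixon's criterion allows, where chance flags about 1 group in 20. Cct3 on replicate 2 of Wobbler over wildtype was at 4.62, and the other 3 arrays lay between -0.44 and 0.40. Cct6b probe 9509 was at 4.59 on the same array, with the others between 0.60 and 0.87. Tcp1 probe 13653 was at 0.27 on replicate 1 of Wobbler over wildtype, with the others between -0.19 and -0.13.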

How the results depend on the processing

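No subunit gene passed in any of the 3 comparisons under any alternative, except 1 (Tcp1) in modifier over wildtype with array weights, and 1 each in Wobbler over wildtype (Tcp1) and modifier over wildtype (Cct6b) when single probes were the features. The median over the 9 genes in Wobbler over wildtype was 0.47 from replicates 1 and 2 alone and -0.20 from replicates 3 and 4 alone. The medians of all spots there were 0.12 and 0.025 on replicates 1 and 2, and -0.22 and -0.10 on replicates 3 and 4. In modifier over wildtype the median over the 9 genes was 0.19 when read as channel 1 over channel 2, beside 0.15 over all features. With 1 array left out, the median ran from 0.01 to 0.27 in Wobbler over wildtype, from -0.25 to -0.09 in modifier over wildtype and from 0.024 to 0.165 in modifier over Wobbler. The count of single probes that passed, 1 in Wobbler over wildtype, was 0 with quantile normalization, with 2 genotype coefficients, read as channel 1 over channel 2 and with each comparison fitted alone, and 0 to 1 with an array left out. The count in modifier over wildtype, 1, was 0 without the dye term, without the filter, with 2 genotype coefficients, read as channel 1 over channel 2 and with each comparison fitted alone, and 0 to 1 with an array left out. It was 2 (Tcp1 probe 13653 beside Cct6b probe 7920) with arrays scaled to equal spread, 2 with quantile normalization, 3 with array weights, and 2 without the widest array and with centring, an alternative chosen after seeing the data. Cct6b probe 7920 in modifier over wildtype turned to 0.24 when read as channel 1 over channel 2, a reading in which no tested feature passed in any comparison. Same-numbered arrays of different comparisons correlated between -0.03 and 0.07 in their deviations, with a median of 0.03. Differently numbered arrays of the same dye orientation correlated between -0.01 and 0.12, with a median of 0.04. Correlations this small cannot show whether same-numbered arrays shared a pool. With the replicate block in place of the dye term the median in modifier over Wobbler was 0.13, that in modifier over wildtype was -0.10 with 5 of 9 genes below 0, and the counts of single probes were 0 in Wobbler over wildtype and 0 in modifier over wildtype. Over all features 45, 108 and 61 passed in Wobbler over wildtype, modifier over wildtype and modifier over Wobbler. The counts were 23, 483 and 73 with arrays scaled to equal spread, 14, 421 and 53 with quantile normalization, and 22, 709 and 59 with array weights. Of all values outside the 11 main ones, 3526 kept their side of the threshold, 20 lost it and 12 gained it. A further 2 were counted as moved and 1 as reversed. Values that did not pass could change sign and still count as kept. Cct8 in Wobbler over wildtype, for example, had the opposite sign in 8 of 31 settings. Of the values of the 11 main ones, 287 were counted as the same, 21 as weaker, 7 as stronger and 5 as moved. Signal over background was not analysed here, since ratios alone were used, and the 2 Cct6b probes with gaps have no fitted value.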
